A study of Mus musculus with 2 samples.

Results

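The aryl hydrocarbon receptor (AHR) and 8 genes that partner it, restrain it or are known to respond to it were described in eosinophils and dendritic cells of the mouse small intestine. The 9 genes were Ahr, Arnt, Ahrr, Cyp1a1, Cyp1b1, Tiparp, Nqo1, Aldh3a1 and Scin, and every probe set whose only annotated gene was one of them was taken, which gave 15 of the 22690 probe sets and 9 of the 12393 genes on the array. The genes were chosen with their signals on both arrays known, so their differences are a description and were not tested. RNA came from cells sorted by flow cytometry from the lamina propria, the connective tissue under the gut epithelium, of unstimulated 8-week-old C57BL/6 mice. Dendritic cells (CD11c+MHCII+) gave 1 array and eosinophils (CD11b+CD11c(int)MHCII-SiglecF+) gave 1 array. The number of animals behind either sort is not stated in the labels. With 1 array per cell type there was no replicate error and no p-value could be computed, so every difference describes this pair of arrays. In sorted bulk RNA, fewer expressing cells and less RNA per cell cannot be told apart.

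AHR is a transcription factor of the bHLH-PAS family that waits in the cytosol in a complex with HSP90 chaperones. When it binds a ligand, such as a dioxin, a dietary indole or a tryptophan metabolite, it enters the nucleus, pairs with ARNT and binds DNA at a short core, GCGTG. Its classic targets are the cytochrome P450 enzymes of the CYP1 family, which break down many of its ligands, and the AHR repressor AHRR, which competes with AHR for ARNT. In the gut, AHR is known for sensing compounds from food and microbes and for its role in intraepithelial lymphocytes and innate lymphoid cells.

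Ahr itself was bright on both arrays and differed by only 1.32-fold, whereas its targets did not follow one pattern. Ahrr, Cyp1b1, Tiparp and Nqo1 were brighter in eosinophils by 4-fold or more. Scin went the other way, with dendritic cells brighter by at least 11.4-fold. Cyp1a1, Aldh3a1 and Arnt stayed close to or under the limit of what these arrays measured in either cell type.

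Signals are linear MAS5 units, the intensity that this algorithm gives for a probe set. The floor, 134.7 units, was the median of the pooled signals. Signals below it were set to it, and a fold that rests on such a signal is a lower bound, marked "at least". Signals up to 211 units, the 95th percentile of 22 genes of lens, germ cells and other unrelated tissues, may also be background. Differences are log2 signal in eosinophils minus that in dendritic cells. The only spread these arrays hold is that between probe sets of a gene, whose pooled SD was 0.73 on the log2 scale (4402 probe sets of 1766 genes). The sort markers followed the labels. Siglecf gave 6977 units in eosinophils and 112 in dendritic cells, and H2-Aa gave 155 and 34015 units. The 18 hybridisation spike controls had a median excess of 2.06-fold on the eosinophil array, and centring on them lowers every log2 difference by 1.04 before the floor is applied. The 3' to 5' ratio of the actin and Gapdh control probe sets ran from 6.38 to 9.81 over both arrays, so the values lean on transcript 3' ends.

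The stretches before the annotated start were read for the 4 genes brighter in eosinophils and for Scin, the gene that went the other way, because these 5 carry the differences. They are the 250 bases before the start in the direction of the gene, from RefSeq on GRCm38.p6, in which 7 of the 9 genes had an entry. Capitals mark each GCGTG or its reverse complement CACGC.
Ahrr, chr13:74292332-74292581, minus strand: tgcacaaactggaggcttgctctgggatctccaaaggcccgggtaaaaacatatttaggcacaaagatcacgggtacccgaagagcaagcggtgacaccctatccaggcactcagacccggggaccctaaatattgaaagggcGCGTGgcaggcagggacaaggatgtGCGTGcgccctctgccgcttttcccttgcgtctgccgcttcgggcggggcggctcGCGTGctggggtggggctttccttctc
Cyp1b1, chr17:79715062-79715311, minus strand: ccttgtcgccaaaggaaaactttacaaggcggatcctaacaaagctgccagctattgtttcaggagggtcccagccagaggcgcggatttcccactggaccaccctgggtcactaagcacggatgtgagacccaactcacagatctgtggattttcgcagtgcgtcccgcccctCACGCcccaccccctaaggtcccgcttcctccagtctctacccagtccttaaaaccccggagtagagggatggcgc
Tiparp, chr3:65528197-65528446, plus strand: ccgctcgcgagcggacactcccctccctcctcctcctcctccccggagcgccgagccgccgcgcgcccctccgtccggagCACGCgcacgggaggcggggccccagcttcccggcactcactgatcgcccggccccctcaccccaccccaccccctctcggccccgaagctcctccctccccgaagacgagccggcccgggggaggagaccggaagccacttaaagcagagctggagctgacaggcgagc
Nqo1, chr8:107403206-107403455, minus strand: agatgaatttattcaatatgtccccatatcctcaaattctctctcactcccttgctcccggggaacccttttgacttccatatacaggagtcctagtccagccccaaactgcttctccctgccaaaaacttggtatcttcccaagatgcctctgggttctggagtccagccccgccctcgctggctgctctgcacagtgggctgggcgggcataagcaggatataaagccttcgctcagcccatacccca
Scin, chr12:40134229-40134478, minus strand: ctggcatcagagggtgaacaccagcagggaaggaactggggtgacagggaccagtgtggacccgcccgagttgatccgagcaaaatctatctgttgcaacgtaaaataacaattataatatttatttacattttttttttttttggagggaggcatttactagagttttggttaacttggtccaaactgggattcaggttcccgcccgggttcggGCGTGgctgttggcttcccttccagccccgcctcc
GCGTG was searched on both strands. It stood in 6 of the 7 stretches, against 28.2% of 32851 stretches of the same length before RefSeq starts, and the core also meets the letters of the hypoxia response element. Ahrr held 3 matches, as 2.77% of all stretches held at least 3. They began 107, 82 and 27 bases before the start, and the last of them also met the longer form TNGCGTG, found in 4.1% of all stretches. Cyp1b1, Tiparp, Scin, Cyp1a1 and Arnt held 1 match each. Nqo1 held none, nor a match to TGACNNNGC, the core of the antioxidant response element, which stood in 10.2% of all stretches. The genes with a match thus included Scin, brighter in dendritic cells, and Cyp1a1, near background, so the presence of the core in this window did not sort the genes by cell type. These letters are rich in CG, and Ahrr held 17 CG pairs and Tiparp 28 against a median of 6. A match is a description and not a binding site, and no match says only that these letters are not in this window.

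The receptor was measured by 1 informative probe set. Ahr probe set 1422631_at gave 5830.5 units in dendritic cells and 4416 in eosinophils. Both signals were far above the floor, and the difference of -0.40 on the log2 scale was smaller than the 0.73 SD between probe sets of a gene. Its second probe set, 1450695_at, annotated to the same sequence record, gave 87.6 units in dendritic cells and 80.5 in eosinophils, both under the floor, and so measured nothing in either cell type. On the spike control scale the Ahr difference became -1.44, or 2.72-fold brighter in dendritic cells, so near-equal Ahr holds only for the global scaling and for the other scalings tried (-0.68 to -0.22). The genes whose pair of log2 signals lay nearest to that of Ahr over the 2 arrays were Morf4l2, Eif5 and Cdipt, at distances of 0.032, 0.035 and 0.086. Signals of different probe sets are not comparable amounts of RNA.

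Arnt, the obligate partner of AHR and of HIF1A, was hardly measured. Probe set 1425064_at gave 50.2 units in dendritic cells and 148 in eosinophils. Probe set 1421721_a_at gave 142 units in dendritic cells and 7.71 in eosinophils. The probe sets pointed in opposite directions, and none of the 4 signals passed 211 units, so no difference was detectable for Arnt at this brightness.

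Ahrr, the repressor that AHR itself induces, was clear on the eosinophil array alone. Its probe set 1420796_at gave 52.2 units in dendritic cells, under the floor, and 1208 units in eosinophils. The eosinophil signal was at least 8.97-fold higher (3.16 on the log2 scale), and at least 5.72-fold with the background limit of 211 units in place of the floor. No second probe set was there to check it.

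The CYP1 enzymes, which oxidise aromatic hydrocarbons and many AHR ligands, split. For Cyp1b1, the member of the family found in many tissues outside the liver, probe set 1416612_at gave 101 units in dendritic cells and 3613 in eosinophils. That is at least 26.8-fold, and at least 17.1-fold against the background limit. The other probe sets of Cyp1b1 pointed the same way by less. Probe set 1416613_at gave 77.1 units in dendritic cells and 372 in eosinophils, at least 2.76-fold. Probe set 1432081_at gave 78.5 and 229 units, at least 1.70-fold, with the eosinophil signal just over the background limit. All 3 probe sets were under the floor in dendritic cells and above it in eosinophils, so the direction was shared while the size ranged from 0.77 to 4.74 on the log2 scale. With the mean of all probe sets the difference was 2.33. Cyp1a1, the most used marker of AHR activity in liver and gut epithelium, gave 149 units in dendritic cells and 65.8 in eosinophils on its only probe set, 1422217_a_at. Neither signal passed the background limit, so Cyp1a1 was not detectable in either cell type at this brightness.

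Tiparp (also called PARP7), a mono-ADP-ribosyltransferase named for its induction by dioxin that acts back on AHR as an inhibitor, was the only target above the floor on both arrays. Probe set 1426721_s_at gave 886 units in dendritic cells and 3562 in eosinophils, or 4.02-fold. Probe set 1452160_at gave 300.3 and 1551 units, or 5.17-fold, and probe set 1452161_at gave 534 and 5415 units, or 10.1-fold. All 3 probe sets were brighter in eosinophils, by 2.01 to 3.34 on the log2 scale. The first of them, which stands for the gene because its mean log2 signal is the highest, lies at the 4-fold mark. By mean linear signal the third would stand for the gene. The first probe set differed by 1.73 on the log2 scale with equal array medians and by 3.99-fold after loess. On the spike control scale it differed by 0.97 (1.96-fold), so its place past 4-fold depends on the scaling.

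Nqo1, a quinone reductase that answers both AHR and the oxidative stress factor NRF2, gave 75.8 units in dendritic cells, under the floor, and 2868 units in eosinophils on its only probe set, 1423627_at. The eosinophil signal was at least 21.3-fold higher, and at least 13.6-fold against the background limit. Aldh3a1, an aldehyde dehydrogenase of the classic AHR gene battery that is abundant in cornea and stomach, gave 31.8 units in dendritic cells and 157 in eosinophils on probe set 1418752_at. Its eosinophil signal was above the floor but not above the background limit, so a difference was not detectable.

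Scin encodes scinderin (adseverin), a gelsolin-like protein that cuts actin filaments and whose transcript is known to be induced by dioxin in thymus. Its probe set 1450276_a_at gave 1537 units in dendritic cells and 39.7 in eosinophils, under the floor. Dendritic cells were thus at least 11.4-fold brighter (-3.51 on the log2 scale), and at least 7.28-fold against the background limit. Scin was the only one of the 9 genes at least 4-fold brighter in dendritic cells.

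**Figure D1:**
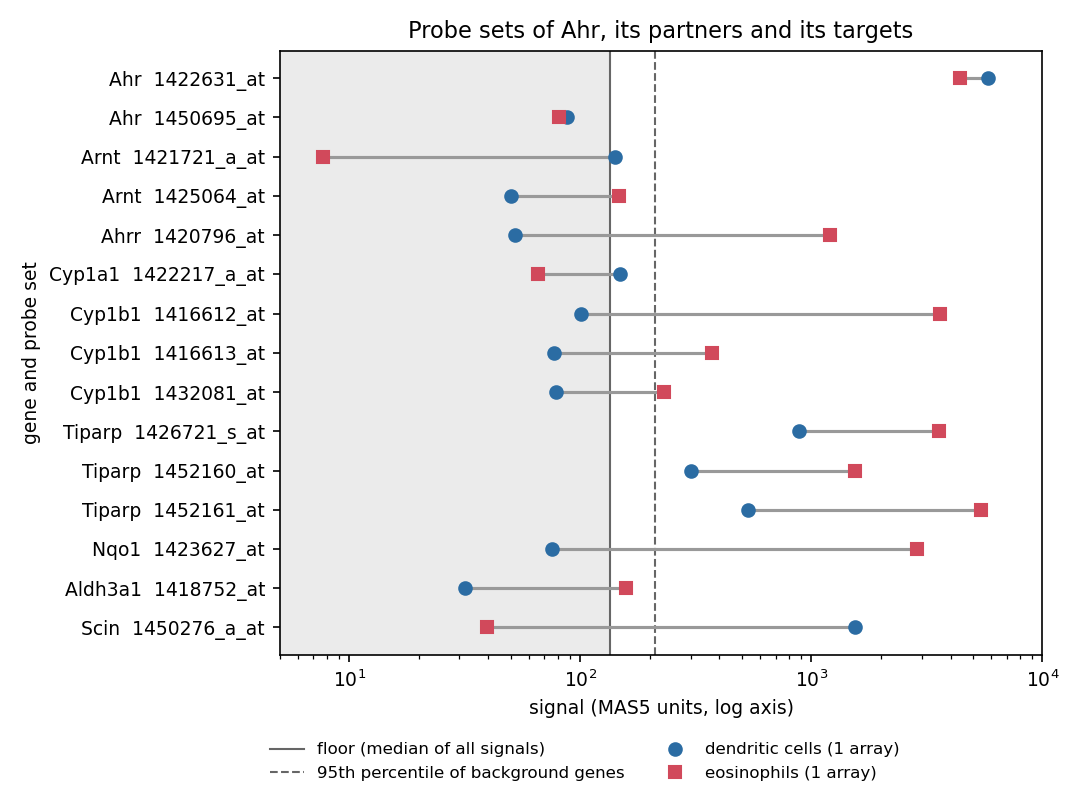
Signal in MAS5 units (log axis) of each of the 15 probe sets, with a blue circle for the dendritic cell array and a red square for the eosinophil array, 1 array each and no error bars; the grey area lies under the floor of 134.7 units and the dashed line marks 211 units. Ahrr, all 3 Cyp1b1 probe sets and Nqo1 cross from under the floor to above the dashed line in eosinophils, Tiparp lies above it on both arrays, and Scin crosses the other way.

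Across the 9 genes, 4 passed 4-fold toward eosinophils and 1 toward dendritic cells. Among the 7994 measured genes, those above the floor on 1 or both arrays, 5.35% passed toward eosinophils and 5.35% toward dendritic cells. That even split depended on the scaling. The shares were 5.32% and 5.56% with quantile normalization and 5.06% and 5.82% with loess. Housekeeping centring gave 6.14% and 4.57%, equal array medians 3.99% and 7.21% and the spike control scale 1.98% and 14.2%. At 2-fold the counts were again 4 and 1, beside 19% and 15.5% of all these genes. At 10-fold they were 2, Cyp1b1 and Nqo1, and 1, Scin, beside 1.31% and 1.55%. Because the genes were chosen with these values known, nothing is read from that contrast. All 9 passed the floor on 1 array or both, but only Ahr and Tiparp passed it on both, and 6 had a signal over the background limit. The other 3, Arnt, Cyp1a1 and Aldh3a1, lay between the floor and that limit on their brighter array. The median difference of the 9 genes was 0.22 on the log2 scale, against 0.16 over the 7994 genes, which is set by one of those dim genes, Aldh3a1.

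**Figure D2:**
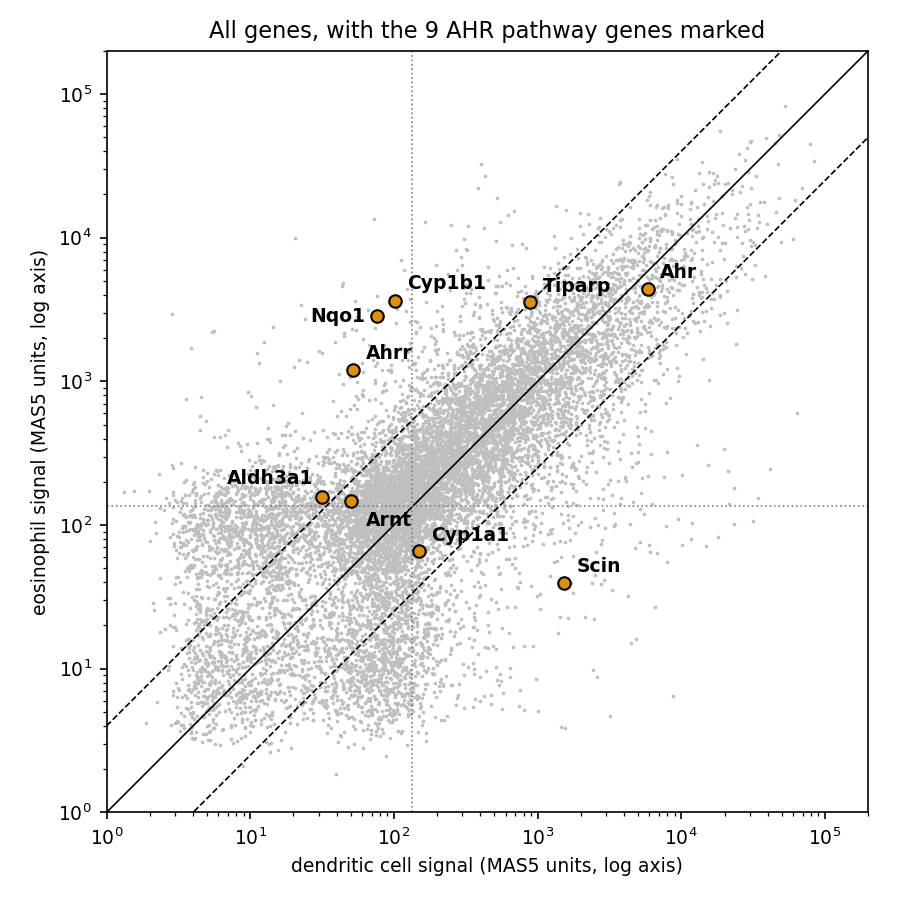
Each grey point is 1 of 12393 genes by its signal in dendritic cells (horizontal) and eosinophils (vertical), both in MAS5 units on log axes; orange points are the 9 AHR pathway genes, the solid line marks equal signal, dashed lines 4-fold and dotted lines the floor. Ahr lies beside the line of equal signal, Cyp1b1, Nqo1 and Ahrr lie far above it, Tiparp lies on the upper dashed line and Scin lies far below.

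The differences of 4 genes held their side of the 4-fold mark when the scaling or the floor was changed. Over 12 settings, the log2 difference ran from 2.52 to 4.53 for Ahrr, from 3.76 to 5.24 for Nqo1 and from -5.21 to -2.86 for Scin. For Cyp1b1 it ran from 0.77 to 5.16, and it left the 4-fold range only where the probe set with the smallest difference stood for the gene. Tiparp was past 4-fold under 8 of 12 settings and brighter in eosinophils under all of them. For Ahr the range was -1.44 to -0.22, always toward dendritic cells and never past 4-fold.

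**Figure D3:**
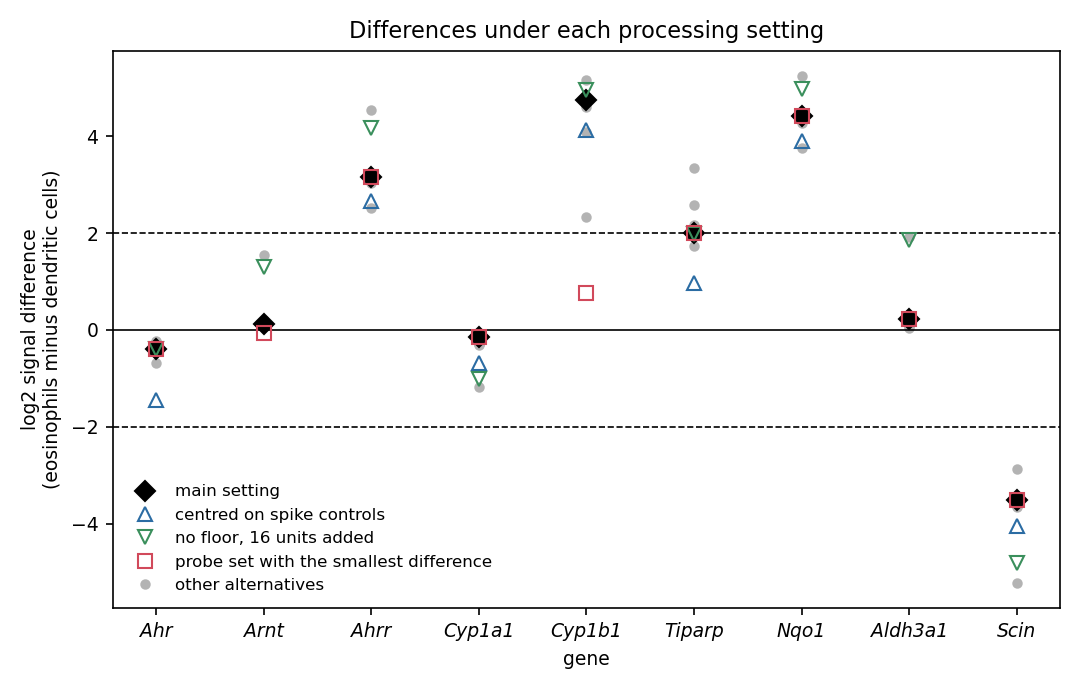
Log2 signal difference (eosinophils minus dendritic cells) of each gene under the main setting (black diamond) and the alternatives, with dashed lines at 4-fold. Ahrr and Nqo1 stay above 2 and Scin below -2, Cyp1b1 drops to 0.77 with its least different probe set, Tiparp drops to 0.97 on the spike control scale, and a gene with no point under a setting was under the floor on both arrays.

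Genes around the receptor were taken from fixed lists. The cytosolic complex had 3 genes on the array. None passed 4-fold by the probe set that stands for the gene, beside 5.35% of all measured genes each way. With housekeeping centring 1 did toward eosinophils, beside 6.14% of all measured genes. Xpo1, the nuclear exporter, came closest, at 681 units in dendritic cells and 2637 in eosinophils (3.87-fold), although another probe set was under the floor on both arrays. The chaperone Hsp90aa1 gave 3237 units in dendritic cells and 1915 in eosinophils, a difference of -0.76. Its 3 probe sets ran from -2.60 to -0.76, so another of them was past 4-fold toward dendritic cells. Src, a kinase found in the complex, gave 180 and 123 units, near background.

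Of 10 nuclear cofactors on the array, 9 were measured, meaning above the floor in either cell type. Past 4-fold there were 2 toward eosinophils and none toward dendritic cells, beside 5.35% of all measured genes each way. The counts were 1 and 1 with equal array medians, 2 and 1 after loess, and 1 and 3 on the spike control scale, so the balance turned with the scaling. The cell cycle brake Rb1, which binds AHR, gave 219 units in dendritic cells and 2258 in eosinophils (10.3-fold). Sp1, a GC-box factor, gave 407 and 1803 units (4.43-fold), with its other probe set under the floor on both arrays. Relb, the NF-kappaB subunit that can pair with AHR, leaned to dendritic cells at 509 units against 134 units, under the floor (at least 3.78-fold). The corepressor Nrip1 did too, at 839 against 269 units (3.12-fold). The list median was 0.089.

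Other genes reported to respond to AHR had 13 members on the array, of which 10 were measured. Past 4-fold were 2 toward eosinophils and none toward dendritic cells, beside 5.35% of all measured genes each way. The cytokine signalling inhibitor Socs2 gave 166 units in dendritic cells and 12929 in eosinophils (77.9-fold), and its 2 probe sets differed by 4.88 and 6.28 on the log2 scale. Serpinb2, a plasminogen activator inhibitor, gave 20.2 and 1252 units (at least 9.29-fold). The cell cycle inhibitor Cdkn1b gave 1814 and 4659 units (2.57-fold), and the amino acid transporter Slc7a5 leaned to dendritic cells at 766 against 200.3 units (3.83-fold). The dimmer signal of Socs2 and of Slc7a5 lies in the background range, so both folds may be lower bounds. Cyp1a2, Cyp2s1 and Il10, named after their values were seen, were under the floor on both arrays. The list median was 0.39.

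Enzymes of tryptophan use and breakdown, the latter a source of AHR ligands, had 14 genes on the array. Of these, 7 were measured, and none passed 4-fold in either direction, beside 5.35% of all measured genes each way. Haao gave 938 units in dendritic cells and 349 in eosinophils (2.68-fold), and Kmo gave 340 and 130 units (at least 2.52-fold), both enzymes of the kynurenine branch. The tryptophanyl-tRNA synthetase Wars gave 177 and 296 units, and the monoamine oxidase Maoa gave 212 and 11.4 units. Ido1, the entry enzyme of the pathway in immune cells, named after its values were seen, gave 137 and 92.8 units, within background. The list median was -0.59, and it was below 0 under every scaling tried.

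The bHLH-PAS family, to which AHR, ARNT and AHRR belong, had 21 genes on the array, 12 of them measured. Past 4-fold there were 3 toward eosinophils and none the other way, beside 5.35% of all measured genes each way. Besides Ahrr they were the clock gene Per2, at 4.54 units in dendritic cells and 780 in eosinophils (at least 5.79-fold), and the hypoxia factor Hif1a, at 2689 and 11826 units (4.40-fold). The second probe set of Per2 was under the floor on both arrays, and those of Hif1a gave log2 differences of 0.80 to 2.69. Per1 leaned to dendritic cells at 393 units against 58.0 units (at least 2.91-fold). The other ARNT-like partners on the array gave little: Arnt2 reached 199 units and Arntl 90.9 units, both named after their values were seen.

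NRF2 targets and regulators, which share Nqo1 with the AHR battery, had 16 genes on the array, all measured. Toward eosinophils 3 passed 4-fold and 8 passed 2-fold, and toward dendritic cells none and 2 did, beside 5.35% of all measured genes each way at 4-fold and 19% and 15.5% at 2-fold. The 4-fold counts were 5 and 0 after quantile, loess or housekeeping scaling, 2 and 0 with equal array medians, and 1 and 2 on the spike control scale. Beside Nqo1, the glutathione synthesis subunit Gclm gave 121 units in dendritic cells and 613 in eosinophils (at least 4.55-fold), and the glutathione reductase Gsr gave 2616 and 11733 units (4.49-fold), with a log2 difference of 0.88 on its other probe set. Pgd, an enzyme of the pentose phosphate pathway, gave 3012 and 11487 units (3.81-fold). Nfe2l2, which encodes NRF2 and was named after its values were seen, went the other way, at 1635 units in dendritic cells and 719 in eosinophils (2.27-fold). The list median was 0.84, against 0.16 over all measured genes, and became -0.096 against -0.63 on the spike control scale.

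The relatives of 4 members were set beside them. Among 11 PARP family genes, all measured, Tiparp alone passed 4-fold, beside 5.35% of all measured genes each way. With equal array medians none passed toward eosinophils and 1 toward dendritic cells, beside 3.99% and 7.21% of all measured genes. On the spike control scale none and 2 did, beside 1.98% and 14.2%. Parp1, the DNA damage sensor, leaned to dendritic cells (1183 against 340 units, 3.48-fold), and Parp2 and Parp6 to eosinophils (2.98-fold and 2.80-fold, the latter against 167 units, in the background range). In the gelsolin family, 6 of 8 genes were measured. The filament capping protein Capg was the mirror image of Scin, at 11.6 units in dendritic cells and 1336 in eosinophils (at least 9.91-fold). Gsn gave 7283 and 5609 units and Flii 2112 and 1501 units, so neither approached 4-fold, although probe sets of Gsn ranged from -0.38 to 1.91.

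Among 14 aldehyde dehydrogenases, 9 were measured. Aldh3a2, the fatty aldehyde enzyme and a close relative of Aldh3a1, gave 647 units in dendritic cells and 4665 in eosinophils (7.21-fold). The retinal dehydrogenase Aldh1a2 (1174 against 86.0 units, at least 8.71-fold) and Aldh9a1 (1356 against 323 units, 4.20-fold) were brighter in dendritic cells. Of 11 cytochrome P450 and electron transfer genes, 6 were measured. Cyp4f18, which oxidises leukotriene B4, joined Cyp1b1 at 105 units in dendritic cells and 3169 in eosinophils (at least 23.5-fold), and the reductase Cyb5r3 was brighter in dendritic cells (677 against 124 units, at least 5.03-fold), with another of its probe sets at 0.22 on the log2 scale.

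**Figure D4:**
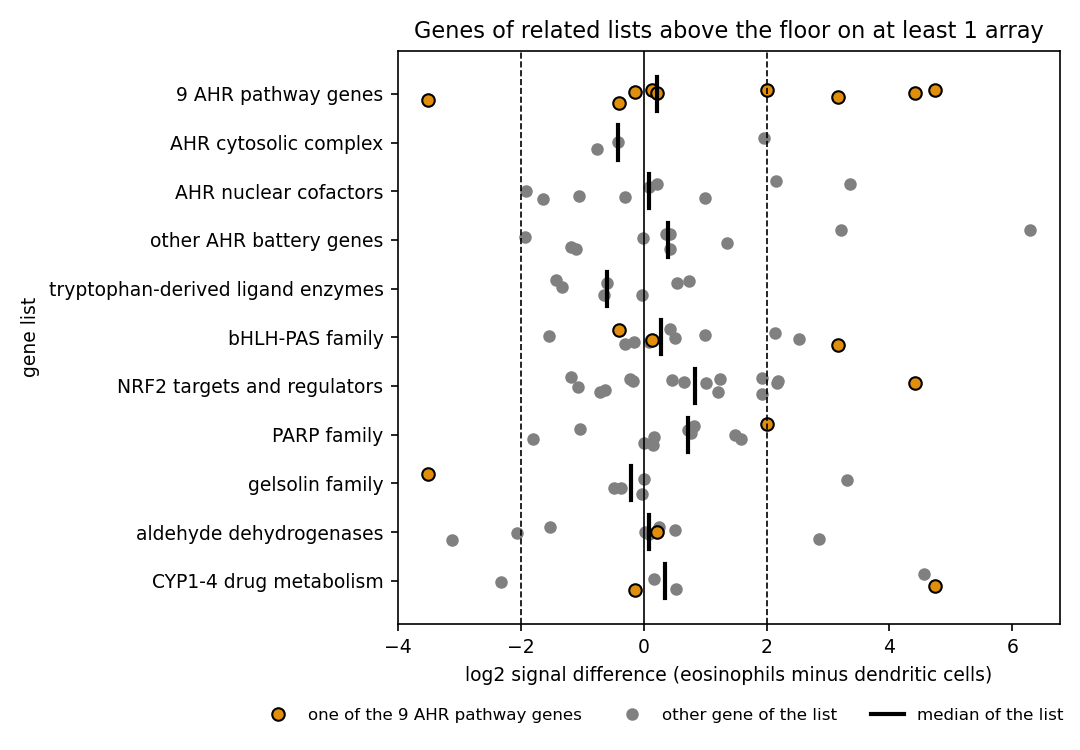
Log2 signal difference (eosinophils minus dendritic cells) of each measured gene, by gene list, with the 9 AHR pathway genes in orange, other genes in grey, a black bar at each list's median and dashed lines at 4-fold; vertical scatter within a list has no meaning. The orange points reach from -3.51 (Scin) to 4.74 (Cyp1b1), and Socs2, at 6.28 among other AHR battery genes, lies furthest right.

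On the spike control scale, where the median of all measured genes moved from 0.16 to -0.63, the medians of all 10 related lists were below 0. The counts past 4-fold toward eosinophils and toward dendritic cells became 2 and 2 for the other AHR genes and 2 and 1 for the bHLH-PAS family. They became 0 and 3 for the aldehyde dehydrogenases and 0 and 1 for the tryptophan enzymes. Of all measured genes, 1.98% and 14.2% passed on that scale. The medians of the cytosolic complex, the tryptophan enzymes and the gelsolin family were below 0 under every scaling. The signs of the other list medians, and the balance of counts in several lists, depend on the scale.

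Markers of other cells were read on both arrays, since several of the 9 genes are known from epithelium and stroma. Of 15 epithelial markers on the array, 4 were above the floor in eosinophils and 6 in dendritic cells. Their summed signal was 2253 and 11138 units, of which Lyz1 gave 9472 in dendritic cells. The 3 probe sets of Lyz1 ran from -6.14 to -0.025 on the log2 scale, so that signal rests on the probe set taken. Fabp2 (226 units), Apoa1 (229 units), Apoa4 (203 units) and Tff3 (170 units) were also above the floor in dendritic cells, and of these Apoa1 (179 units) was above it in eosinophils. Krt18 gave 870 units in eosinophils and 60.7 in dendritic cells and Epcam 433 and 336 units, while Fabp1, the enterocyte fatty acid carrier, gave 7.26 and 7.57 units and Vil1 27.7 and 87.6 units, under the floor. Of 10 stromal and endothelial markers, 5 were above the floor in eosinophils and 2 in dendritic cells, with sums of 1996 and 781 units. Pecam1, which leukocytes also express, gave 647 of the eosinophil sum. Acta2 gave 364 units in eosinophils and 144 in dendritic cells. Cdh5 (195 and 31.0 units), Pdgfrb (192 and 21.2 units) and Col3a1 (162 and 112 units) were also above the floor in eosinophils. The fibroblast genes Col1a2 and Dcn gave 83.9 and 97.3 units there, under the floor. Col1a1 went the other way, at 99.2 units in eosinophils and 225 in dendritic cells. Of 7 neutrophil markers 2 were above the floor in eosinophils, with sums of 1092 units in eosinophils and 526 in dendritic cells, and the chemokine receptor Cxcr2 gave 570 of the former. Of 4 markers of group 3 innate lymphoid cells, which depend on AHR, Il7r and Kit were above the floor in dendritic cells, at 352 and 291 units in dendritic cells and 213 and 110 in eosinophils. The sums of macrophage (7148 units), T cell (4725 units), B and plasma cell (1545 units) and mast cell and basophil (1045 units) markers were higher in dendritic cells than in eosinophils (2419, 789, 473 and 542 units), on the side where Scin was bright. Few genes made up these sums. Of the B and plasma cell sum, Igha gave 643 units in dendritic cells and 95.3 in eosinophils, and Sdc1 gave 525 and 74.2. The other 5 of its 7 genes were under the floor on both arrays. Cd8a, which some dendritic cells express, gave 3732 units of the T cell sum. Cd3e was above the floor on both arrays, at 557 units in dendritic cells and 336 in eosinophils. Cd3d, Cd3g, Cd4 and Cd8b1 were under the floor on both arrays. Cd14 and Cd68 gave 2641 and 2573 units of the macrophage sum. Csf1r (1121 units in dendritic cells, 763 in eosinophils), C1qb (363 and 37.5 units) and C1qa (153 and 14.7 units) were also brighter in dendritic cells. Mertk (59.1 units in dendritic cells, 258 in eosinophils) and Cd163 (41.2 and 193 units) went the other way. Of the 10 mast cell and basophil markers, 8 were under the floor on both arrays. These markers were named after their values were seen. Their part in the differences was not tested.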

How the data were processed

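RNA of sorted dendritic cells and eosinophils was extracted with Trizol and turned into biotin-labelled cDNA with a commercial amplification kit, per the labels' protocols. The authors deposited 1 linear intensity for each probe set. MAS5 5.0 made them, per the submitters' processing notes. The mean without the lowest and highest 2% of signals was 500.3 and 500.2 units, a common global scale. The number of arrays, 1 per cell type, limits the precision. No detection calls were used here. The genome build GRCm38.p6 served only for symbols and the printed sequences.

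Probe set names came from the platform annotation, which may hold old symbols. Of 22690 probe sets, 64 were controls, 20380 mapped to 1 gene, 691 to several (left unnamed) and 1555 to none listed. Symbols were updated by Entrez identifier for 20351 with RefSeq of GRCm38.p6. A gene with several probe sets was represented by the one highest in mean log2 signal. The threshold was 4-fold. The members and lists were chosen with earlier results of these data known. Named genes are the 9 members with all probe sets, up to 4 genes of each list with the largest difference, the 3 nearest to Ahr and bright markers of other cells. Genes outside this rule, among them the dim markers, were named after their values were seen. The floor and count were tested on simulated arrays. Their mean signals came from genes above the floor on both arrays and their noise from the SD between probe sets. Error between arrays was not simulated. Alternatives covered 5 scalings, 3 floors, 3 probe set rules and other thresholds. Python 3.11.15, numpy 2.4.6, pandas 2.3.3 and statsmodels 0.14.6 (loess, span 0.3) were used.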

Additional observations from a re-analysis of the deposited data

How the results depend on the processing

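The count of 4 genes at least 4-fold brighter in eosinophils stayed at 3 or 4 under all alternative scalings, floors and probe set rules, and became 2 (Cyp1b1 and Nqo1) at a 10-fold threshold, which 1.31% of all genes above the floor on at least 1 array passed in that direction. The count of 1 gene, Scin, brighter in dendritic cells held under every alternative. The median difference of the measured genes, 0.22, was not stable. It became 1.05 with quantile normalization, 1.02 with loess, 0.97 on the spike control scale, 1.92 with a floor at the 25th percentile (41.4 units), 2.26 with a floor from background genes, 1.86 with no floor and 16 units added, and 1.27 with the mean of all probe sets. Fewer genes were above the floor in several of these (6 with the floor from background genes, 7 on the spike control scale). With the 25th percentile floor and with no floor all 9 were measured, and the median was again the value of Aldh3a1. Of 90 values of single genes under an alternative, 74 moved by less than the 0.73 SD between probe sets, 16 moved by more and no difference past 4-fold changed sign. Arnt, Cyp1a1 and Aldh3a1 moved by more only with the lowest floor or none. No paired analysis was possible because each cell type has 1 array, and for the same reason no replicate could be left out.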
